A study of Mus musculus with 8 samples.

Results

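The vessel-forming receptor genes Tek, Tie1, Flt1 and Kdr, the ligand genes Angpt1, Angpt2 and Vegfa, and the endothelial surface protein genes Pecam1, Cdh5 and Eng were followed in dermal fibroblasts of young and old mice. These 10 of the 17097 genes measured were covered by 16 probe sets that are annotated to 1 symbol each. A gene's value is that of its probe set with the highest mean over the 8 arrays, and 5 of the genes had more than 1 probe set. The genes were chosen from results of these same arrays, so their age differences are given as values with an error and without a p-value, and whether limma called them is stated as a description only. Each array holds the RNA of 1 animal. The young group was 4 mice aged 2 months and the old group 4 mice aged 18 months. Neither group carries a stated treatment or allele, and strain and sex are not given in the sources used here. Per the labels' protocols, the subdermis was taken off, the skin was digested with collagenase and cells were sorted by flow cytometry. The sort kept cells positive for Pdgfra and CD34 and left out those with CD45 (leukocytes), CD117, CD24, CD31 (the product of Pecam1) or EpCam (epithelium). RNA (6 ng per sample) was amplified over 18 cycles before labelling, and the values are normalized log2 levels in which 1 unit is a doubling.

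In blood vessels, angiopoietins and VEGFs are made largely by the cells around the endothelium and are sensed by receptor tyrosine kinases on it. Angpt1 activates Tek (Tie2) and steadies the vessel wall, while Angpt2 acts on the same receptor mostly as an antagonist. Tie1 has no established ligand of its own and pairs with Tek. Vegfa binds Kdr, the main signalling receptor for vessel growth, and Flt1, which binds more tightly and, also as a secreted form, holds ligand away from Kdr. Pecam1 and Cdh5 (VE-cadherin) join endothelial cells to each other, and Eng (endoglin) is a co-receptor for ligands of the TGF-beta and BMP family that is also found on mesenchymal cells. In skin, dermal fibroblasts are counted among the sources of Vegfa and Angpt1, and the receptors are used as endothelial markers.

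The promoter sequences of the 4 receptor genes are shown because 3 of these genes were higher in every old array than in any young one while Kdr overlapped between the ages. Each line holds the 250 bases before the annotated start, 5′ to 3′ on the gene's strand, from RefSeq's GRCm38.p6 annotation. Capitals mark GGAAG or its reverse complement CTTCC, a form of the core bound by ETS factors, a family active in endothelial genes. The windows lie at chr4:94739039-94739288 (Tek, plus strand), chr4:118489850-118490099 (Tie1, minus strand), chr5:147726012-147726261 (Flt1, minus strand) and chr5:75978456-75978705 (Kdr, minus strand).
Tek: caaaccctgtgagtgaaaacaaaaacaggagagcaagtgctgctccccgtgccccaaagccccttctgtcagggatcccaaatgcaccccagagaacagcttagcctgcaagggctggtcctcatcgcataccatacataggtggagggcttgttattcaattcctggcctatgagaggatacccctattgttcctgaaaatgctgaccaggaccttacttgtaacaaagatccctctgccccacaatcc
Tie1: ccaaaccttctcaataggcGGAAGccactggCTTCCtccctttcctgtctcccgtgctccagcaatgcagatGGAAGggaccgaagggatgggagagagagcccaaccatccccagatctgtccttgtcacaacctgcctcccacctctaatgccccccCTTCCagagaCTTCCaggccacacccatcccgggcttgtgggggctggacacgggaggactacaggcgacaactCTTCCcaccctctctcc
Flt1: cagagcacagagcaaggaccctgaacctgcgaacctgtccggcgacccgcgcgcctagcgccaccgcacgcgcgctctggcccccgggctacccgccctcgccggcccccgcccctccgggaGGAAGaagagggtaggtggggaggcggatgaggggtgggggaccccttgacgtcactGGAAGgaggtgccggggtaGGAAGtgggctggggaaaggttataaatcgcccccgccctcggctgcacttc
Kdr: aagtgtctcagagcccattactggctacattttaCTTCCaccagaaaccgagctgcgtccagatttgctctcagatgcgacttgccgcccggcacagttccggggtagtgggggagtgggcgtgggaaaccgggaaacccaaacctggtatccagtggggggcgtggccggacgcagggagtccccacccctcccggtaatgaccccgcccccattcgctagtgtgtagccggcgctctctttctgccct
Other forms of the core were not searched for, so a window without this form may still hold the core. The shorter GGAA, as its reverse complement TTCC, can be read in the printed Tek line. Its share over all windows was not counted. The Tie1 window held 6 matches to this form counting both strands, the Flt1 window 3, the Kdr window 1 and the Tek window 0. Of 32851 promoter windows of the same length, 64.1% held at least 1. For the core of the hypoxia response element, the form ACGTG or its reverse complement CACGT was in none of the 4 windows. It was in 16.6% of all windows. The other form, GCGTG, was not searched for. It can be read in the printed Kdr line, and its reverse complement CACGC in the Flt1 line. Of the 10 genes, 6 had a promoter entry, and Angpt1, Angpt2, Pecam1 and Cdh5 had none. A match is a description of the letters and not a measured binding site.

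Array values correlated between 0.994 and 0.997 among young animals, between 0.992 and 0.997 among old animals and between 0.983 and 0.990 across ages, over all genes. The median difference of all genes was 0.01. An index of non-specific background, the mean level of control probe sets rich in G and C, lay between 6.13 and 6.41 in young arrays and between 5.38 and 5.98 in old arrays, so it moved with age. With this index as a covariate, limma called 67 genes higher in old and 98 genes lower in old, against 1688 and 1310 without it, and the share of calls that were higher went from 56.3% to 40.6%.

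Among the 10 genes, the receptors Tek, Flt1 and Tie1 were higher in old fibroblasts, and in each of them the lowest old array lay above the highest young one. The other 7 genes overlapped between the ages. Limma's adjusted p was under 0.05 for those 3 genes in the higher direction and for 0 in the lower one, while 9.87% of all genes were called higher and 7.66% lower. By position alone, 11.7% of all genes had every old value above every young value and 9.66% had every old value below. Since the age contrast took part in the choice of genes, nothing is read from these shares. With the background covariate the call of Tek held and those of Flt1 and Tie1 were lost. The old mean was the higher one in 8 of the 10, and the median difference was 0.21.

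**Figure D1:**
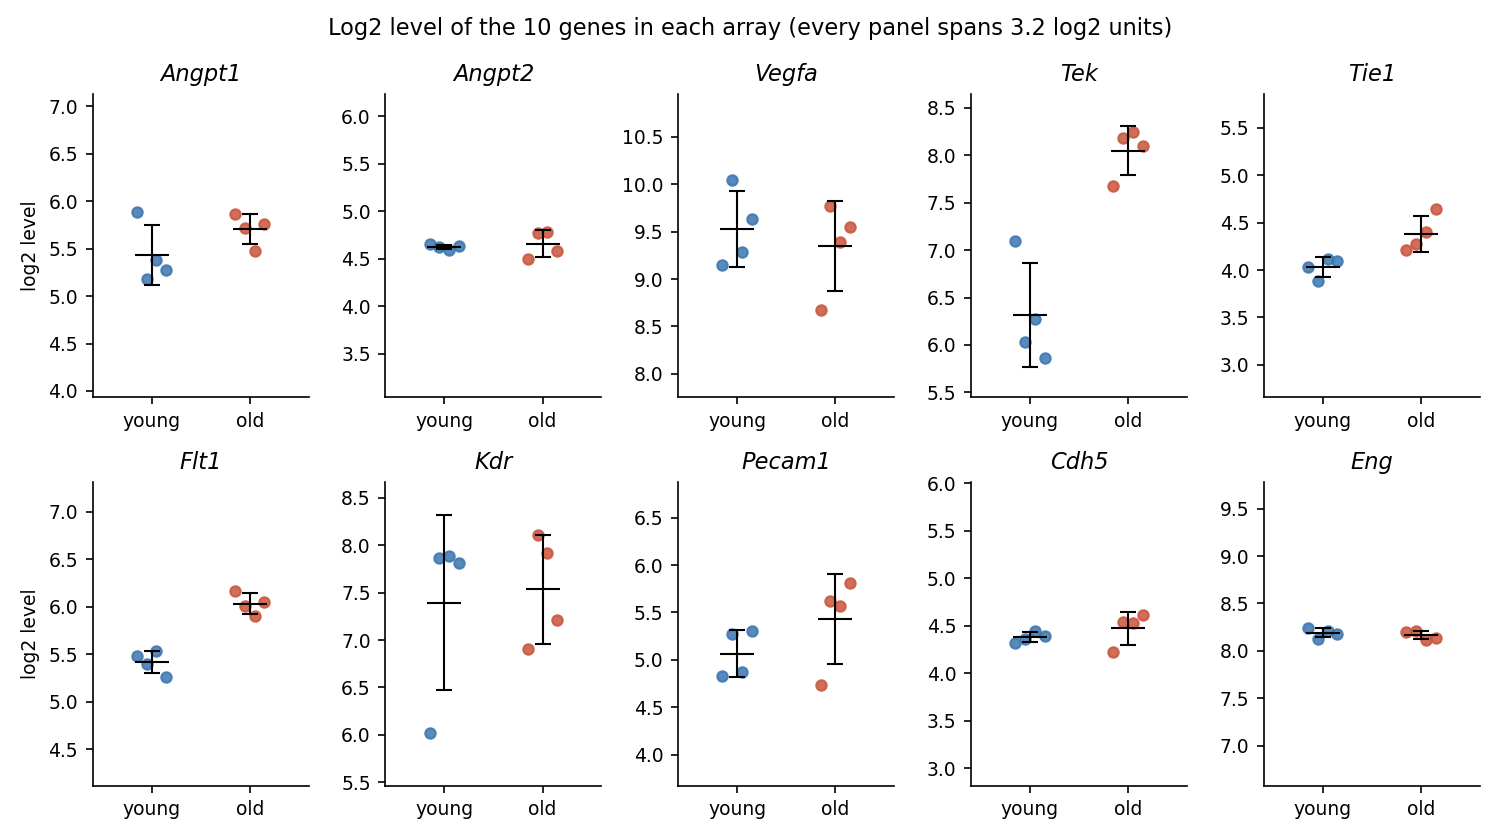
Log2 level of each of the 10 genes (vertical axes, all spanning the same range) in the 4 young and 4 old arrays, with points for arrays, the horizontal bar for the mean and whiskers for 1 SD. Old points lie wholly above young points for Tek, Tie1 and Flt1 and overlap them in the other panels, and young 1 lies at 6.02 in the Kdr panel, away from the rest of its group.

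Tek showed the largest age difference of the 10. Its log2 levels were 7.10, 6.03, 6.27 and 5.86 in young arrays 1 to 4 and 7.67, 8.18, 8.24 and 8.10 in old arrays 1 to 4. The groups did not overlap, although young 1 was closer to old 1 than to the other young animals. The young mean was 6.31 ± 0.55 and the old mean 8.05 ± 0.26 (SD over 4 arrays in each case), which makes a difference of 1.73 ± 0.24 (SE), or 3.32-fold. Leaving out each array in turn gave differences between 1.58 and 1.99, and the background covariate gave 2.63. Tek had a single probe set, so no second set bears on this value.

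Flt1 differed less than Tek but more evenly between animals. Young levels were 5.48, 5.40, 5.53 and 5.26, and old levels were 6.17, 6.01, 5.90 and 6.05. Every old array was above every young one, with a gap between 5.53 and 5.90. The difference was 0.61 ± 0.08 (SE), or 1.53-fold, and 0.47 with the background covariate. Flt1 was the only one of the 10 with 3 probe sets. The other 2 sets gave 0.76 ± 0.10 (1.69-fold) and 0.47 ± 0.11 (1.38-fold), each with the old arrays above the young ones. Both were dim, with means of 4.80 in young and 5.56 in old for the first and 4.14 and 4.61 for the second. The second lay near the bottom of the arrays' range, so the size of its difference is uncertain.

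Tie1, the partner of Tek, had the smallest difference of the 3 receptors that were higher in old. Its young levels were 4.03, 3.88, 4.12 and 4.10, and its old levels were 4.21, 4.27, 4.40 and 4.64. The groups were separated by the narrow gap between 4.12 in young 3 and 4.21 in old 1, and old 4 was highest. The difference was 0.35 ± 0.10 (SE), or 1.27-fold, and it was 0.47 with the background covariate. Without any of 6 arrays (all young ones, old 3 or old 4) the call was lost, with differences between 0.26 and 0.40 over all 8 removals. These levels are near the bottom of the arrays' range. As a description of that range, 41 olfactory receptor genes, which fibroblasts are not known to use, had a median level of 4.00 and a 95th percentile of 4.74. Tie1, Angpt2 and Cdh5 had mean levels under that percentile, although levels of different probe sets depend on their own binding and cannot be ranked as amounts.

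Kdr did not share the pattern of the other receptors. Its young levels were 6.02, 7.86, 7.89 and 7.81, and its old levels were 6.90, 8.11, 7.92 and 7.21. Young 1 was lowest, 3 young arrays were nearly alike, and the old arrays spread around them. The difference was 0.14 ± 0.42 (SE). Without young 1 it was -0.32, and over all 8 removals it ran from -0.32 to 0.35 with 2 changes of sign, so no direction is given. Kdr had 1 probe set.

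**Figure D2:**
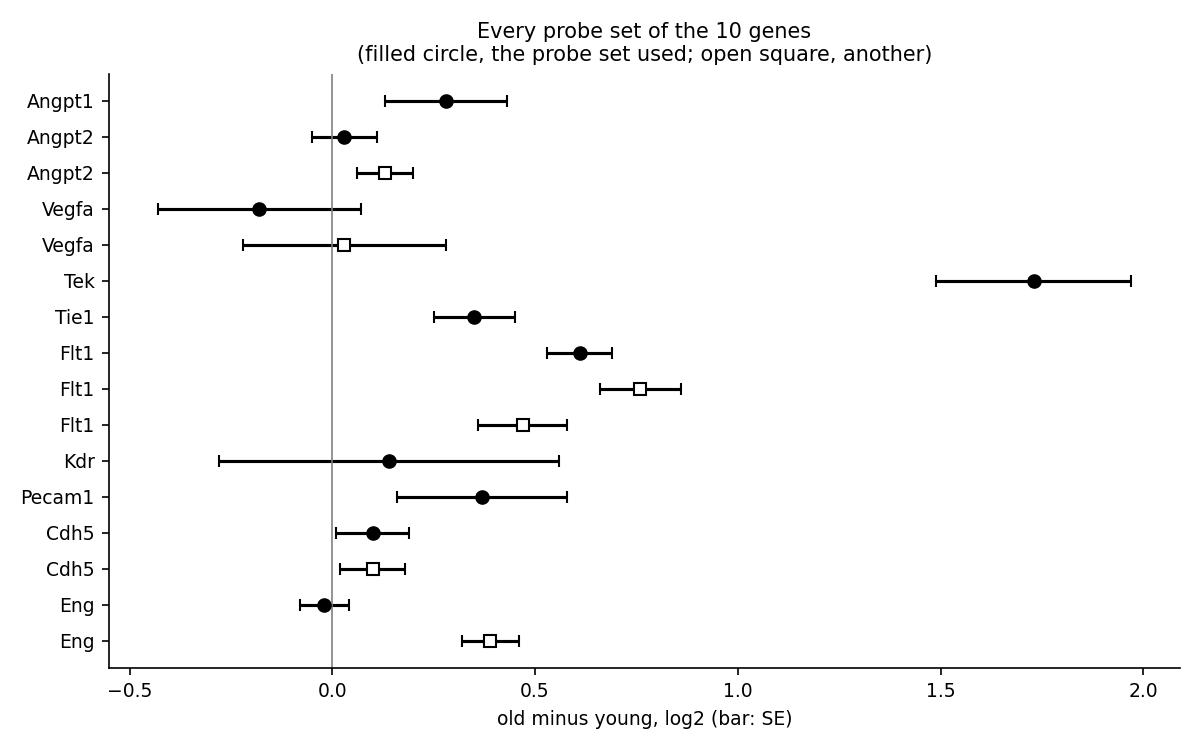
Difference of old minus young in log2 units (horizontal axis) with its SE as a bar for each of the 16 probe sets, by gene on the vertical axis, with a filled circle for the set used and an open square for another. The 3 sets of Flt1 lie to the right of 0 at 0.61, 0.76 and 0.47, and the sets of Eng part at -0.02 and 0.39.

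The ligands overlapped between the ages. Vegfa, which attracts and maintains vessels, had young levels of 9.15, 10.04, 9.28 and 9.63 and old levels of 8.67, 9.77, 9.39 and 9.55. Old 1 was lowest and young 2 highest, and the remaining values interleaved. The difference was -0.18 ± 0.25 (SE), ranging from -0.32 to 0.05 when 1 array was left out and standing at -0.02 with the background covariate. A second Vegfa probe set, with young levels of 8.19, 8.82, 8.53 and 8.80 and old levels of 7.81, 8.91, 8.69 and 9.06, differed by 0.03 ± 0.25. Old 1 was lowest with both sets, and neither set separated the ages.

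Angpt1, the activating ligand of Tek, had young levels of 5.89, 5.18, 5.38 and 5.27 and old levels of 5.86, 5.72, 5.48 and 5.76. Young 1 was the highest of all 8, and all 4 old arrays lay above the other 3 young ones. The difference was 0.28 ± 0.15 (SE), and without young 1 it was 0.43. Limma called Angpt1 higher when young 1 was left out, but not with all arrays or without any other array. For Angpt2, the context-dependent antagonist, young levels were 4.65, 4.62, 4.59 and 4.63 and old levels were 4.50, 4.77, 4.78 and 4.58. Young arrays were nearly equal, while 2 old arrays lay above and 2 below them. The difference was 0.03 ± 0.08, and a second probe set gave 0.13 ± 0.07.

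The endothelial surface proteins did not separate the ages with the probe sets used. Pecam1, whose protein was selected against in the sort, had young levels of 4.83, 5.27, 4.87 and 5.30 and old levels of 4.74, 5.62, 5.57 and 5.81. Old 1 was the lowest of all 8 arrays and the other 3 old arrays were the highest. The difference was 0.37 ± 0.22 (SE), and without old 1 it was 0.60. Cdh5, the endothelial cadherin, had young levels from 4.32 to 4.45 and old levels of 4.22, 4.54, 4.53 and 4.61, with a difference of 0.10 ± 0.09 and the same difference, 0.10 ± 0.08, with a second probe set. As for Pecam1, old 1 was lowest and the other old arrays were highest.

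Eng gave different answers with its 2 probe sets. With the set used, young levels were 8.24, 8.13, 8.21 and 8.18 and old levels were 8.20, 8.21, 8.12 and 8.14, a difference of -0.02 ± 0.06 (SE). These 8 values lay within a range of 8.12 to 8.24 with the ages mixed. With the other set, young levels were 7.54, 7.80, 7.61 and 7.77 and old levels were 8.10, 8.07, 8.04 and 8.07, a difference of 0.39 ± 0.07 with the ages apart. Which transcript parts the sets cover is not stated in the files or labels, and the cause of the disagreement was not tested.

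The rule sets the fibroblast-made ligands against the endothelial receptors in each array, so both lists were averaged after each gene was centred on its own mean over the 8 arrays. The receptor mean minus the ligand mean was -0.50, -0.42, -0.06 and -0.35 in young arrays and 0.30, 0.29, 0.47 and 0.27 in old arrays. Receptors were thus lower than ligands, relative to their means, in every young array and higher in every old one. The receptor mean alone ran from -0.49 to -0.19 in young and from 0.09 to 0.50 in old, whereas the ligand mean ran from -0.13 to 0.07 in young and from -0.20 to 0.21 in old. Without Tek, the receptor minus ligand values were -0.64, -0.15, 0.18 and -0.04 in young and 0.17, 0.13, 0.27 and 0.09 in old. The ages then overlapped, since young 3 lay above all old arrays but old 3, so the separation in the full lists rests on Tek.

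**Figure D3:**
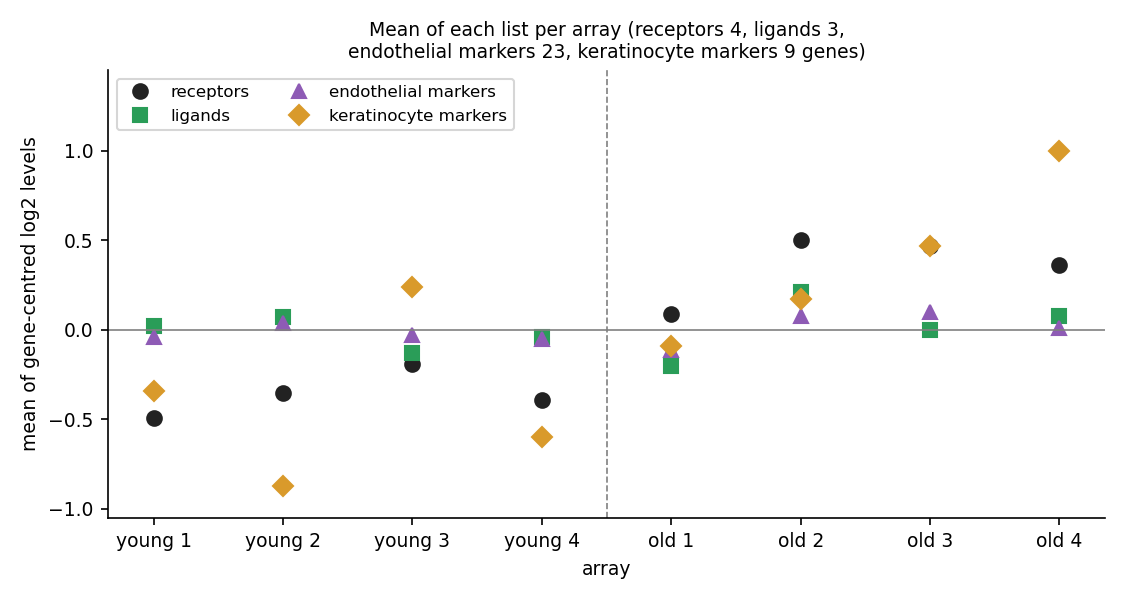
Mean of gene-centred log2 levels (vertical axis) in each of the 8 arrays (horizontal axis) for the 4 receptors, the 3 ligands, 23 endothelial markers and 9 keratinocyte markers. Receptor points are below 0 in the young arrays and above 0 in the old ones, endothelial points stay between -0.11 and 0.10, and keratinocyte points range from -0.87 in young 2 to 1.00 in old 4.

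Across the 8 arrays, which share the age contrast, Pearson's correlation with Tek was 0.891 for Flt1, 0.772 for Tie1, 0.701 for Angpt1, 0.445 for Pecam1 and 0.440 for Cdh5. It was 0.352 for Angpt2, -0.112 for Kdr, -0.114 for Eng and -0.262 for Vegfa. These are descriptions over 8 points in 2 age groups. The genes whose 8 values followed those of Tek most closely were St6gal1, a sialyltransferase of the Golgi, at 0.990, Ahnak2 at 0.988, Dip2a at 0.983, Penk, the precursor of enkephalin peptides, at 0.982 and Mpp1, a membrane scaffold protein, at 0.981. Each of the 5 was higher in old, St6gal1 by 1.16 ± 0.17 (SE; 2.23-fold) and the others by 0.71, 0.52, 0.50 and 0.29 in that order, a direction fixed by their likeness to Tek. St6gal1 levels were 6.18, 5.48, 5.56 and 5.27 in young and 6.63, 6.74, 6.79 and 6.95 in old. As with Tek, young 1 was the highest young array. When each age was centred on its own mean, the correlations with Tek were 0.935 for St6gal1 and between 0.884 and 0.923 for the other 4, values that the choice by correlation over the same arrays largely fixes. The Mpp1 call was lost without young 4 (adjusted p = 0.0514) and with the mean over all its probe sets.

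Genes of the pathway outside the 10 were taken in 9 lists with 104 genes, of which 95 were measured. In limma's fit 20 were higher, 16 were lower and 59 were not called, so 37.9% were called against 17.5% of all genes, and the median difference was 0.01, equal to that of all genes. The lists were composed with earlier results of these arrays known, so this share describes them and is no test. With the background covariate, 1 of the 36 kept its call, and 23 kept it without any single array. No called gene of these lists changed direction under any alternative that was run.

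**Figure D4:**
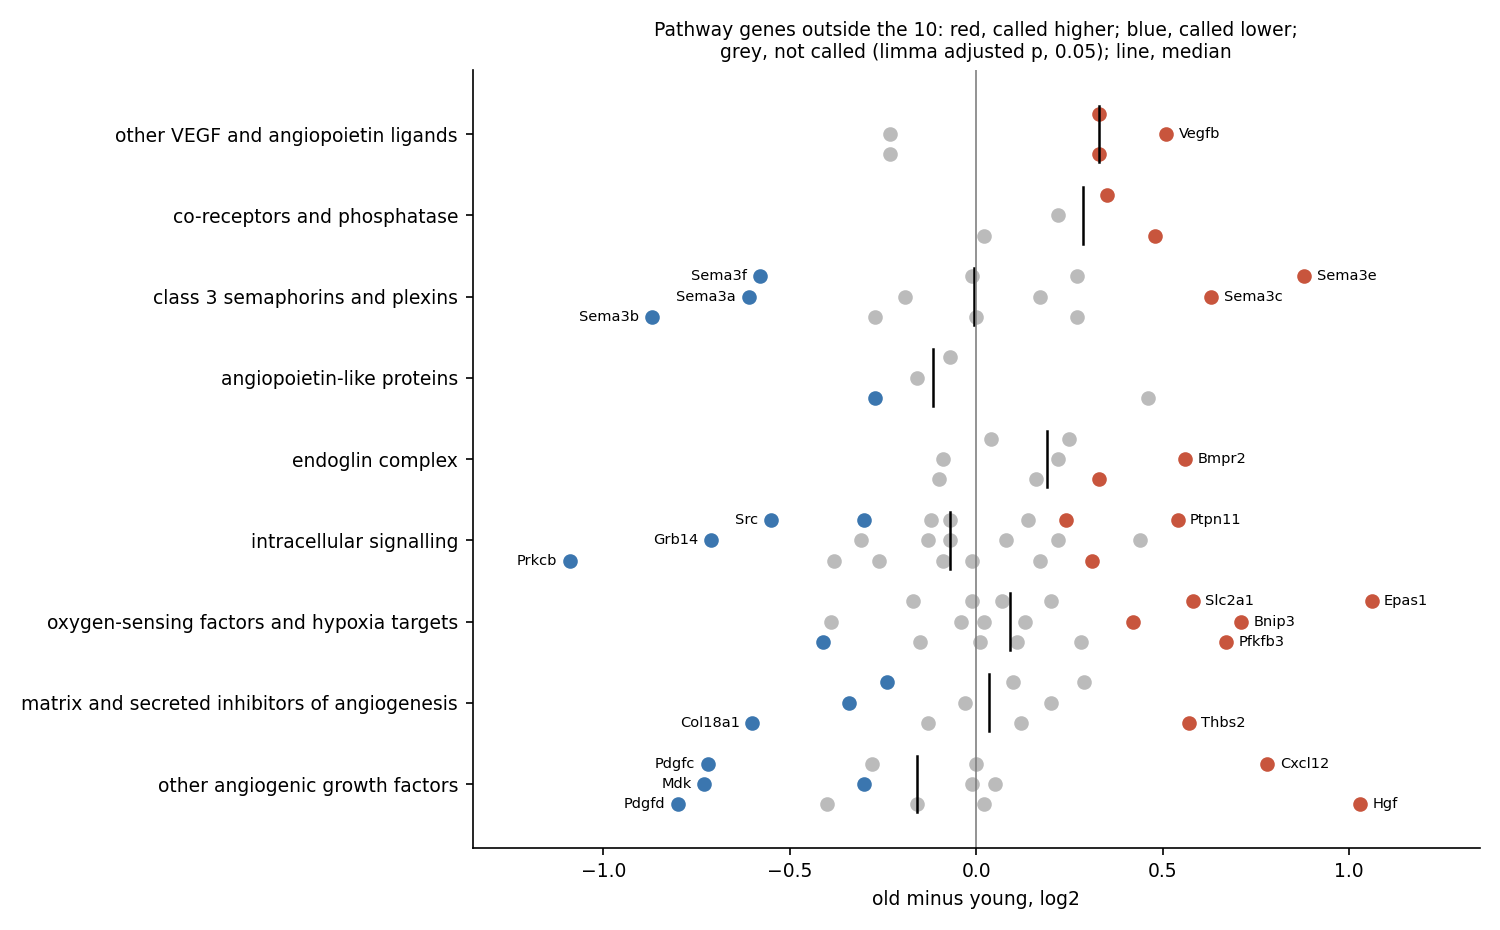
Difference of old minus young in log2 units (horizontal axis) for the 95 measured pathway genes by list (vertical axis), red where limma called the gene higher, blue where lower and grey where not called, with a black line at each list's median. Called genes with a difference of at least 0.5 are named, and most lists hold genes on both sides of 0, from Prkcb at -1.09 to Epas1 at 1.06.

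The further ligands of the family included 3 that were higher in old and 0 that were lower, of 5 measured, with a median of 0.33. Vegfb, a ligand of Flt1, rose from a young mean of 7.24 ± 0.18 (SD, highest array 7.44) to 7.54, 7.89, 7.76 and 7.78 in old, with no overlap. Its difference was 0.51 ± 0.10 (SE; 1.42-fold, limma adjusted p = 0.00844). Vegfd and Vegfc, which act on lymphatic vessels through Flt4, rose by 0.33 each (adjusted p = 0.0309 and 0.0455). The Vegfd call was lost without young 2, young 4, old 2, old 3 or old 4, with adjusted p up to 0.0847. That of Vegfc was lost without any array but old 2, with adjusted p up to 0.110, after centring or repeated quantile normalization, and with the replicate number as a block (adjusted p = 0.0587). Pgf, another ligand of Flt1, differed by -0.23 (adjusted p = 0.247), and Angpt4 by -0.23 (adjusted p = 0.248).

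Both neuropilins, co-receptors that present VEGFs and semaphorins, were higher in old. Nrp1 levels were 9.84, 9.83, 9.95 and 10.02 in young and 10.06, 10.48, 10.22 and 10.26 in old, a difference of 0.35 ± 0.09 (SE; 1.27-fold, adjusted p = 0.0277). Nrp2 differed by 0.48 ± 0.13 (1.40-fold, adjusted p = 0.0302), from 9.91 ± 0.24 to 10.39 ± 0.19 (SD, n = 4 each). For both genes the old arrays lay above the young ones. The Nrp1 call was lost without young 1, young 2, young 3, old 2, old 3 or old 4 (highest adjusted p 0.0751), the Nrp2 call without young 2, young 3, young 4, old 1 or old 4 (highest value 0.0674). Repeated quantile normalization ended the first of these calls and median centring the second. Flt4, the lymphatic VEGF receptor, differed by 0.02 (adjusted p = 0.917), and Ptprb, the phosphatase that acts on Tek, by 0.22 (adjusted p = 0.234).

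Class 3 semaphorins, most of which bind neuropilins as VEGFs do, moved in both directions, and none of the 5 plexins measured was called. Of 12 genes, 2 were higher and 3 lower. Sema3e rose from 4.38, 4.16, 4.02 and 4.43 to 5.89, 4.72, 4.89 and 5.02, by 0.88 ± 0.22 (SE; adjusted p = 0.0222), with old 1 well above the other old arrays. All 4 young values lay under the level of 4.74 given for olfactory receptor genes, so the size of this difference is uncertain. Its call was lost without young 2 (or young 3), where adjusted p reached 0.0635, and its difference was 0.25 with the background covariate. Sema3c rose by 0.63 ± 0.12 (1.55-fold, adjusted p = 0.00520). Sema3b fell by 0.87, from 10.77, 10.61, 10.82 and 10.75 to 10.20, 9.84, 9.85 and 9.57 (SE 0.12; 1.83-fold, adjusted p = 9.38e-04). All 4 old arrays were lower than the lowest young one. Sema3a fell by 0.61 (adjusted p = 0.0319), a call lost without any young array, old 2 or old 3 (up to 0.0794). Sema3f, named here after its values were seen, fell by 0.58 (adjusted p = 0.00521), and the covariate left -0.16 of this difference.

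Of 4 measured angiopoietin-like genes, Angptl1 fell by 0.27 ± 0.07 (SE; adjusted p = 0.0201) and the others were not called. The Angptl1 call was lost without young 1, young 4 or old 2, where adjusted p reached 0.0555, and with the probe set of largest variance. In the group around endoglin, 2 of 8 were higher, with a median of 0.19. Bmpr2, the type II receptor for BMPs, rose from 10.16, 9.99, 9.98 and 9.97 to 10.80, 10.41, 10.51 and 10.60, by 0.56 ± 0.09 (1.47-fold, adjusted p = 0.00246). The age groups were clearly apart. Tgfbr3, the other TGF-beta co-receptor, rose by 0.33 ± 0.07 (adjusted p = 0.0100). Acvrl1, the type I receptor that works with endoglin, differed by -0.10 ± 0.06 (adjusted p = 0.280).

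Among 21 measured intracellular signalling genes, 3 were higher, 4 lower and 14 not called, with a median of -0.07. Prkcb, a protein kinase C downstream of Kdr, fell by 1.09, from 9.09, 9.22, 9.50 and 9.45 to 7.89, 8.33, 8.42 and 8.25 (SE 0.13; 2.13-fold, adjusted p = 4.49e-04). Grb14, an adaptor that binds activated Tek, fell by 0.71, from 6.51 ± 0.09 to 5.80 ± 0.07 (SD, n = 4 each; adjusted p = 1.32e-04). Both genes showed a full gap between the ages. Src, a kinase used by many receptors, fell by 0.55 ± 0.08 (SE; adjusted p = 0.00155). Ptpn11, the phosphatase Shp2, rose by 0.54 ± 0.08 (adjusted p = 0.00206). Akt1, central to the survival signal of Tek, differed by -0.09 and Foxo1, the transcription factor it restrains, by 0.08, neither called (adjusted p = 0.508 and 0.710).

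Oxygen-sensing factors and hypoxia targets, which include the regulators of Vegfa, held 5 higher, 1 lower and 12 uncalled genes of 18, with a median of 0.09. Epas1 (HIF-2 alpha) had young levels of 6.69, 6.73, 7.54 and 8.03 and old levels of 7.95, 8.32, 8.17 and 8.79. Young 4 lay within the old range, and the other 3 young arrays were below it. The difference was 1.06 ± 0.29 (SE; 2.08-fold, adjusted p = 0.0332), a call lost without young 1, young 2, old 2, old 3 or old 4 (up to 0.0907), and also with the mean over all probe sets, with trend and robust settings and with array weights. Hif1a differed by -0.15 ± 0.14 (adjusted p = 0.549). Bnip3, a mitochondrial hypoxia target, rose by 0.71 ± 0.14 (adjusted p = 0.00842) and Pfkfb3, a regulator of glycolysis, by 0.67 ± 0.13 (adjusted p = 0.00655). Slc2a1, the glucose transporter Glut1, rose by 0.58 ± 0.16 (adjusted p = 0.0345), with the call lost without young 1, young 2, young 3, old 2, old 3 or old 4 (up to 0.0935) and after repeated quantile normalization. Vegfa itself, a hypoxia target as well, did not separate the ages, as described above.

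Of 10 measured inhibitors of angiogenesis, 1 was higher and 3 lower, with a median of 0.04. Thbs2, a matrix protein that restrains endothelial growth, rose from 11.12, 10.94, 10.96 and 11.32 to 11.61, 11.61, 11.58 and 11.82, by 0.57 ± 0.10 (SE; 1.48-fold, adjusted p = 0.00304). Col18a1, the collagen that yields endostatin, fell by 0.60, from 9.95, 9.98, 9.97 and 9.86 to 9.45, 9.26, 9.40 and 9.24 (SE 0.07; adjusted p = 3.66e-04). For both genes no old value reached the young range. Sparc, a matrix protein that binds VEGF, fell by 0.34 (adjusted p = 0.00733). Serpinf1, the inhibitor PEDF, fell by 0.24 (adjusted p = 0.0251), a call lost with the replicate block (0.0580) and without any young array or old 4 (up to 0.0626).

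Other angiogenic growth factors held 2 higher and 4 lower genes of 13, with a median of -0.16. Hgf, a growth factor made by mesenchymal cells that acts on endothelium and epithelium through Met, rose from 7.26, 7.08, 7.16 and 7.31 to 8.23, 8.39, 8.27 and 8.04. The groups were far apart, by 1.03 ± 0.09 (SE; 2.04-fold, adjusted p = 7.22e-05), and Hgf was the pathway gene that kept its call with the background covariate (1.12, adjusted p = 0.0263). Cxcl12, a chemokine of stromal cells, rose by 0.78 ± 0.14 (1.71-fold, adjusted p = 0.00497). Pdgfd fell by 0.80 ± 0.12 (adjusted p = 0.00176), and Mdk (midkine) fell by 0.73, from 7.77, 7.77, 7.58 and 7.86 to 6.73, 7.15, 7.09 and 7.08 (adjusted p = 0.00104). In both, the old arrays were the 4 lowest.

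Markers of cells that the sort was meant to remove were checked beside the receptors. Of 23 further endothelial markers, 3 were higher, 1 lower and 19 not called, with a median of 0.05, and 17.4% called stands near the 17.5% of all genes. Their summed linear level was 601.1 to 643.3 in young arrays and 563.5 to 671.2 in old arrays, so the sums overlapped. None was at 0, since these normalized values have no zero, but 14 of the 23 were at or under the level of 4.74 given for olfactory receptor genes. With so many markers near the bottom of the arrays' range, neither the sums nor the share called can show whether endothelial RNA changed. Selp (P-selectin) rose by 0.49 ± 0.11 (SE; adjusted p = 0.0135), a call lost with the probe set of largest variance. Plvap, the marker of highest mean, fell by 0.50 (adjusted p = 0.0456), with the call lost without young 1, young 2, young 4, old 1, old 3 or old 4 (up to 0.115). Fli1 and Clec14a, named after their values were seen, rose by 0.45 (adjusted p = 0.0159) and 0.48 (adjusted p = 0.0255), and the Clec14a call was lost without young 1, young 2, young 4 or old 4 (up to 0.0649). For both genes every young value lay under 4.74, so the sizes of these differences are uncertain. In bulk RNA of sorted cells, a change in the number of cells of a type and a change in RNA per cell cannot be told apart.

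**Figure D5:**
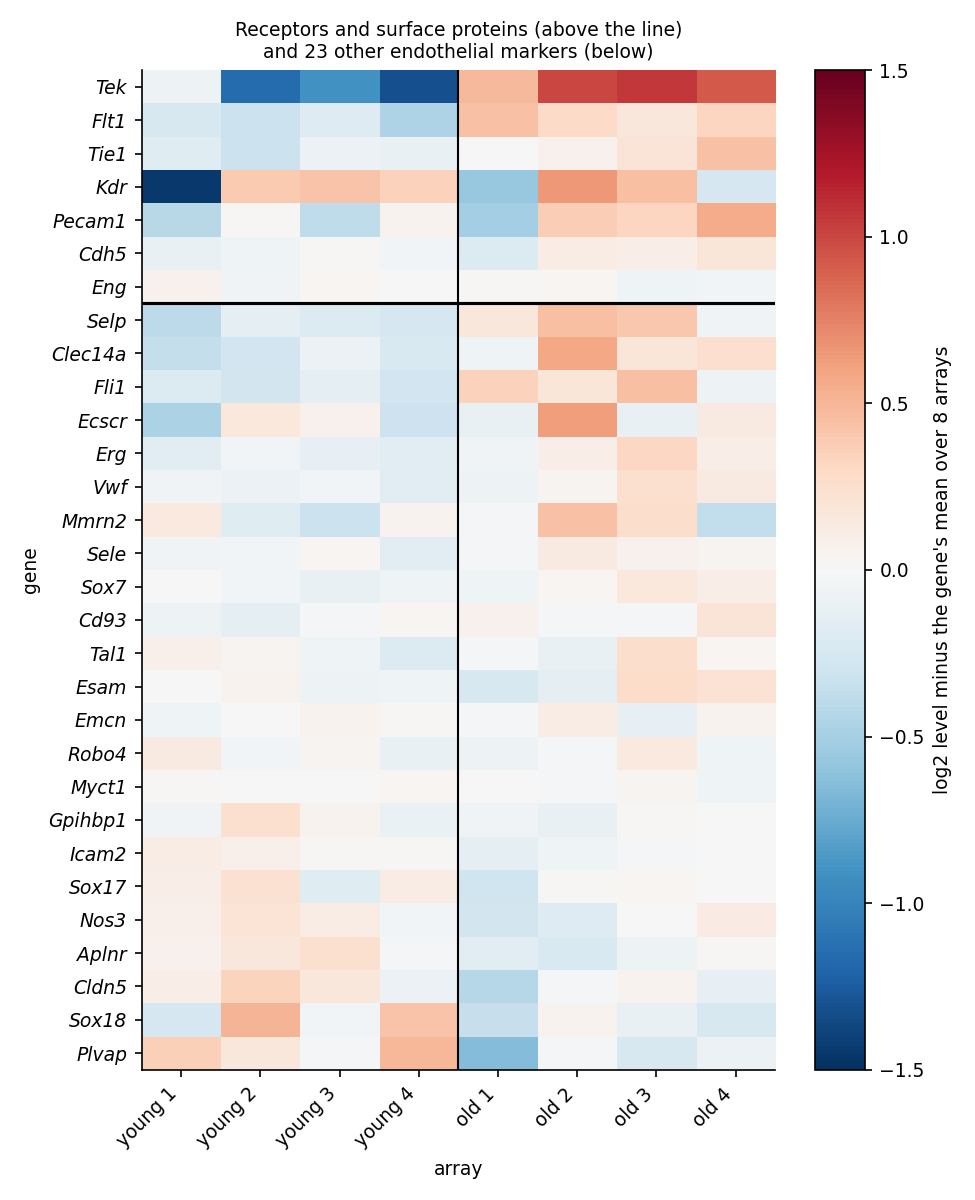
Log2 level minus the gene's mean over the 8 arrays, shown by colour (red above, blue below), for 7 receptor and surface protein genes above the line and 23 endothelial markers below it (rows), in 4 young and 4 old arrays (columns). Tek turns from blue to red between the ages, while most marker rows stay pale and Plvap is redder in young arrays.

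Of the 4 lymphatic endothelial markers measured, 2 were higher. Prox1, the transcription factor that sets lymphatic identity, had young levels of 4.47, 4.60, 4.52 and 4.59 and old levels of 5.27, 5.13, 4.94 and 5.08. The difference was 0.56 ± 0.08 (SE; adjusted p = 0.00104) with the ages apart, and 0.27 with the background covariate. The 4 young values lay under the same olfactory level of 4.74, so its size is uncertain. Reln, named after its values were seen, rose by 0.46 (adjusted p = 0.0262), a call lost without young 1, young 3, young 4 or old 4 (up to 0.0718), and Lyve1 differed by 0.02 (adjusted p = 0.928). The summed level of the list was 101.7 to 112.3 in young and 121.8 to 155.2 in old. Like Tek, this sum was higher in every old array than in any young one, but within an age the 2 did not rank the arrays alike. The part of these cells in the receptor differences was not tested.

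Mural cell markers went both ways. Of 9 measured, 1 was higher, 1 lower and 7 not called, with a median of 0.32. Their summed linear level was 2594 to 3011 in young and 1643 to 2069 in old, while the mean of the gene-centred log2 levels ran from -0.20 to -0.01 in young and from -0.07 to 0.32 in old. The sum follows Ndufa4l2, the marker of highest mean, which fell by 1.32 on the log2 scale (adjusted p = 3.48e-04). Kcnj8, named with the next 2 genes after the values were seen, rose by 0.64 (adjusted p = 0.0429), a call lost without any array but young 1 (up to 0.106) and after repeated quantile normalization. Rgs5, a pericyte marker, was 4.04 to 4.49 in young and 4.86, 4.95, 6.93 and 4.96 in old, with the ages apart, means of 4.23 and 5.42 and no call (adjusted p = 0.0696). Its young values lay under the olfactory level of 4.74, so the size of this difference is uncertain. Acta2, smooth muscle actin, differed by 0.72 (adjusted p = 0.0502).

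Leukocyte markers also went both ways, with 1 of 8 higher, 1 lower and a median of 0.11. Their sums were 654.8 to 846.7 in young and 495.1 to 636.3 in old. The mean of the gene-centred log2 levels ran from -0.08 to 0.09 in young and from -0.07 to 0.12 in old. The sum follows Csf1r, the macrophage growth factor receptor and marker of highest mean, which fell by 1.92 (adjusted p = 5.9e-06). Lyz2, a lysozyme of myeloid cells, named after its values were seen, rose by 1.08 ± 0.16 (SE; adjusted p = 0.00155). Ptprc, which encodes CD45, differed by 0.17 (adjusted p = 0.101). Of the 8 markers, 4 had mean levels at or under the olfactory level of 4.74, Ptprc among them.

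Of 9 keratinocyte markers, 3 were higher, 1 lower and 5 not called, which is 44.4% called against 17.5% of all genes, and the median was 0.65. Their sums were 1861 to 4923 in young and 3840 to 8661 in old. Krt14 rose by 1.65 ± 0.30 (SE; adjusted p = 0.00469). Krt5 rose by 1.04 (adjusted p = 0.0379), a call lost without young 1, young 2, young 4, old 2, old 3 or old 4 (up to 0.0949) and with trend and robust settings. The genes that follow are named after their values were seen. Perp, a desmosome protein, rose by 1.62 (adjusted p = 0.0382), a call lost without the same 6 arrays (up to 0.103) and with the same settings. Trp63, the transcription factor of basal keratinocytes, fell by 0.41 (adjusted p = 0.0237). That call was lost without young 1, young 3, young 4, old 2 or old 3 (up to 0.0667), and the difference was 0.18 with the probe set of largest variance and -0.11 with the mean over its probe sets. Krt10 and Krt15 differed by 0.44 and 0.40 and were not called (adjusted p = 0.307 and 0.514). Dsp and Cdh1 differed by 1.28 and 0.65 and were not called either (adjusted p = 0.0952 and 0.102). The young mean of Cdh1, 4.18, lay under the olfactory level of 4.74. In old 4, where the keratinocyte sum was highest, Tek was 8.10 and Flt1 6.05, within the range of the other old arrays. Tie1 was 4.64 there, its highest level in any array. In young 3, where the keratinocyte sum was highest among young arrays, Tek was 6.27, under young 1. Flt1 at 5.53 and Tie1 at 4.12 had their highest young levels in that array. The part of these cells in the receptor differences was not tested.

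Of 10 fibroblast markers, 1 was higher, 1 lower and 8 not called, with a median of -0.07. Their sums were lower in old, 35360 to 36880 in young and 32940 to 34310 in old, without overlap. Dcn, the marker of highest mean, differed by -0.09 (adjusted p = 0.393), and Prrx1 rose by 0.32 (adjusted p = 0.00636). Col3a1, a fibrillar collagen named after its values were seen, fell by 0.28 (adjusted p = 0.00765) and differed by -1.86 with the probe set of largest variance. Col1a1 and Lum, likewise chosen, differed by -0.19 and -0.16 with every old array below every young one, and neither was called (adjusted p = 0.0652 and 0.107).

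No transcript of the sort gate was called. Pdgfra differed by 0.16 (adjusted p = 0.307) and Cd34 by -0.04 (adjusted p = 0.729). Among the transcripts selected against, Kit (CD117) differed by 0.10 (adjusted p = 0.314), Cd24a by -0.67 (adjusted p = 0.0515) and Epcam by 0.34 (adjusted p = 0.0746). After repeated quantile normalization Cd24a was called lower (adjusted p = 0.0304) and Epcam higher (adjusted p = 0.0316). Cd24a was also called lower with the replicate block (adjusted p = 0.00643), and limma called Pecam1 higher when old 1 was left out. Every old array lay above every young one for Epcam and for Ptprc, as for 11.7% of all genes. Young and old means were 4.25 and 4.59 for Epcam and 3.71 and 3.88 for Ptprc. These means lay under the olfactory level of 4.74, so the sizes of both differences are uncertain. For Pecam1 the values are those given above, with 3 of the 4 old arrays above every young one.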

How the data were processed

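The authors deposited log2 levels per probe set of a perfect-match array, and RMA and the R package affy are named in the submitters' processing notes, with versions not given in the sources used here. RMA corrects background, equalises array distributions and compresses differences near background. The table held 45141 probe sets. The platform annotation gave 1 symbol for 28898 of them, several for 551 and none for 15692, and 28689 matched a RefSeq gene ID. The array annotation's build is not given, so genes have no coordinates, and promoters come from RefSeq's GRCm38.p6 table. Old and young arrays (n = 4 each) entered 2-sided linear models without covariates (limma 3.58.1, R 4.3.3), with empirical Bayes moderation and Benjamini-Hochberg adjustment over 17097 genes at a threshold of 0.05, a fit tested on simulated data. Figures used matplotlib 3.10.9 in Python 3.11.15. The number of arrays limits precision.

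The members and lists were chosen with earlier results of these data known. Genes named are the 10 members, up to 4 called genes of largest difference per pathway list, the marker of highest mean and that of smallest p per marker list, the sort gate and the 5 genes most correlated with Tek. Others are said to be named after their values were seen, or are uncalled relatives of these genes. Alternatives covered the choice of probe set, a replicate block, scaling, a filter on levels under 5, empirical Bayes settings, array weights, a background covariate and leaving out each array. The series text says that a young and an old mouse were collected together on each day, but the labels do not tie specimen numbers to days, so no block was used.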

Additional observations from a re-analysis of the deposited data

Results flagged for a closer look

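In each age group of 4 arrays, the highest or lowest value of each of the genes taken by the naming rule was compared with its nearest neighbour, and a gap above Dixon's 95% critical value for the share of the group's range was marked. This marked 5 of 118 groups (4.24%), and chance marks about 1 in 20. Kdr in young 1 was 6.02, with the other young arrays between 7.81 and 7.89. Bmpr2 in young 1 was 10.16, against 9.97 to 9.99 in the others. Thbs2 in old 4 was 11.82, against 11.58 to 11.61, and Epcam in old 4 was 4.99, against 4.43 to 4.48. Mdk in old 1 was 6.73, against 7.08 to 7.15.

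Over all genes, 366 (2.14%) set young 1 apart from the other young arrays by this measure, within the 102 to 407 genes that did so for each of the other 7 arrays. In 6 of them young 1 lay more than 1 log2 unit below the next young array. They were Kdr, Angptl4, Akr1c14, Tac1, Gm19710 and Gm3336, chosen after their values were seen. Angptl4, a secreted regulator of lipoprotein lipase, was 8.32 in young 1 and 10.52, 10.65 and 10.30 in young 2 to 4. No cause was tested.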

How the results depend on the processing

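The background covariate moved the counts most, to 67 genes higher in old, 98 genes lower in old and 1 of the pathway genes outside the members called, from 1688, 1310 and 36. Since the index differs between the ages, age and background are only partly separable in these 8 arrays. Leaving out each array in turn gave between 1215 and 1709 genes higher, between 983 and 1219 lower, and between 27 and 38 pathway genes called. With the replicate block there were 1838 higher, 1268 lower and 35 pathway genes called. The specimen numbers were checked for pairing by correlating the deviations of same-numbered young and old arrays from their group means, which gave 0.29, 0.05, -0.04 and 0.22. Young and old arrays of different numbers gave -0.26 to 0.21. Not every array correlated best with its own number, so the check does not establish pairing. With 4 arrays per age it cannot exclude pairing either. The other alternatives stayed within 1.5 times each count. Of the 41 called genes that the naming rule takes outside the 10, 39 kept the call with the replicate block (all but Vegfc and Serpinf1), 28 without any single array and 3 with the covariate (Hgf, Csf1r and Ahnak2), and 0 of them reversed. Tek differed by 1.69 to 2.63 over the settings that kept all arrays. Array number and signal near background limit the dimmest genes, Tie1, Angpt2 and Cdh5 among the 10.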
